A study of Mus musculus with 160 samples.

Results

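The 9 enteric neuron genes *Vip*, *Nos1*, *Chat*, *Tac1*, *Calcb*, *Ret*, *Elavl4*, *Uchl1* and *Prph* were followed through 160 bulk RNA-seq libraries of mouse distal colon. They were chosen by name, from the transmitters and markers of gut neurons, and all 9 were found among the 39179 genes counted. The libraries came from 4 knockout lines studied in dextran sulfate sodium (DSS) colitis, in which a sulfated polysaccharide in the drinking water injures the colonic epithelium. In each line, homozygous knockout mice (labelled HO) were set against wild-type mice (WT). The HEM1 line, in which *Nckap1l* was deleted, gave 16 HO and 15 WT libraries from C57BL6/J mice of both sexes at day 12. Its DSS dose was lower than that of the other lines. The DOCK2 line (*Dock2*) gave 18 HO and 24 WT libraries from C57BL6/J mice of both sexes at day 10, with DSS at 3%. The GPSM3 line (*Gpsm3*) gave 20 HO and 20 WT libraries from mice labelled male, C57BL6/J, at day 10 and 3% DSS. The Dok3 line (*Dok3*) gave 26 HO and 21 WT libraries from mice labelled male on the 129 strain, at day 10 and 3.5% DSS. The study used 3% DSS in its first round with this line, and which libraries came from that round is not known here. The mice were young adults with littermate controls, and DSS was given for 5 days before a return to water. Which libraries came from DSS-treated mice and which from untreated mice is not in the labels, so HO was compared with WT over both together, and the degree of inflammation was read from the libraries themselves.

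Gut neurons lie in the myenteric plexus, between the muscle layers, and in the submucosal plexus. Inhibitory motor neurons relax the smooth muscle with nitric oxide, made by the synthase *Nos1*, and with vasoactive intestinal peptide (*Vip*). Excitatory motor neurons contract it with acetylcholine, made by *Chat*, and with substance P and neurokinin A, both encoded by *Tac1*. *Calcb* encodes the beta form of calcitonin gene-related peptide, carried by intrinsic sensory neurons. *Ret* encodes the receptor of the GDNF family, on which the gut's neurons depend in development. *Elavl4* (the RNA-binding protein HuD), *Uchl1* (the deubiquitinase PGP9.5) and *Prph* (the intermediate filament peripherin) are general neuronal markers. Some of these genes are also used outside neurons: *Chat* in the tuft cells of the epithelium and *Nos1* in striated muscle.

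Before the results, some libraries must be set apart. In 32 of the 160, a skin score (mean log2 CPM, counts per 1000000 counts, of 6 epidermal genes, among them *Krt5* and *Krt14*) lay between 6.47 and 10.5, and in the other 128 between -1.13 and 2.95, with none between. A striated muscle score of 8 genes such as *Acta1* and *Ckm* had a median of 6.33 in the 32 and -0.41 in the 128. The labels name only distal colon. The libraries with skin RNA were 15 of 31 in the HEM1 line, 5 of 42 in DOCK2, 3 of 40 in GPSM3 and 9 of 47 in Dok3. Results of the members that rest on them are therefore mostly given with and without them. The search for the nearest genes and the counts of other gene lists use all libraries unless stated. Replicate 11 of the Dok3 HO group had the lowest smooth muscle score of all libraries, 5.85 against a next lowest of 6.85. In the Dok3 line 5 libraries labelled male carried the expression markers of females. The deleted gene was lower in the HO group of every line without separating the groups: *Nckap1l* differed by -1.09 log2 (SE 0.41, adjusted p = 0.9996), *Dock2* by -0.62 (SE 0.17, adjusted p = 0.21), *Gpsm3* by -2.06 (SE 0.28, adjusted p = 0.0001) and *Dok3* by -0.48 (SE 0.39, adjusted p = 0.9996). Medians in HO and WT were 14.8 and 27.2 CPM for *Nckap1l*, 22.2 and 34.2 for *Dock2*, 0.575 and 3.21 for *Gpsm3*, and 3.18 and 3.64 for *Dok3*. Only *Gpsm3* passed the test, and every genotype result below is therefore one between libraries as labelled. Total counts ran from 4344988 to 19993833 per library, with a median of 15989625.5, so that 3 counts were worth 0.15 to 0.69 CPM.

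The members lie on 7 chromosomes, given here with GRCm38 coordinates of the whole gene. The inhibitory transmitter genes are *Vip* on chromosome 10 at 5639218-5647617, plus strand, and *Nos1* on chromosome 5 at 117781032-117958840, plus strand. The excitatory ones are *Chat* on chromosome 14 at 32408203-32465989, minus strand, and *Tac1* on chromosome 6 at 7554879-7565834, plus strand. *Calcb* lies on chromosome 7 at 114718643-114723365, plus strand, and *Ret* on chromosome 6 at 118151745-118197718, minus strand. The general markers are *Elavl4* on chromosome 4 at 110203722-110351909, minus strand, *Uchl1* on chromosome 5 at 66676091-66687234, plus strand, and *Prph* on chromosome 15 at 99055174-99058978, plus strand. An annotated antisense gene overlaps 3 of them: *Gm26995* overlaps *Nos1*, *Gm2990* overlaps *Chat*, and *Uchl1os* overlaps *Uchl1*. The strand setting of the counting is not given in the sources used here, so reads of these partners cannot be told apart from the members' own.

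RefSeq promoter windows of the same assembly (GRCm38.p6) were held for 7 of the 9, all but *Calcb* and *Ret*. The 250 bases before the start of *Vip*, *Elavl4* and *Prph* are shown because these 3 genes rose and fell together across libraries (below) although their start regions differ in composition, with 38.4%, 53.6% and 65.2% G and C. Capitals mark TGACG on either strand (CGTCA on the strand shown), the core of the cAMP response element. The windows lie at chr10:5638968-5639217 (plus strand), chr4:110351912-110352161 (minus strand, the first of 4 annotated starts) and chr15:99054924-99055173 (plus strand).
Vip: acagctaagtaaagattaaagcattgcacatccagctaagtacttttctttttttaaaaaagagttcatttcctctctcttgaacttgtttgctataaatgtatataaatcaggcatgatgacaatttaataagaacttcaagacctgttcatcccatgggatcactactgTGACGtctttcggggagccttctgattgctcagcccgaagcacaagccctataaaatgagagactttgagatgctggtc
Elavl4: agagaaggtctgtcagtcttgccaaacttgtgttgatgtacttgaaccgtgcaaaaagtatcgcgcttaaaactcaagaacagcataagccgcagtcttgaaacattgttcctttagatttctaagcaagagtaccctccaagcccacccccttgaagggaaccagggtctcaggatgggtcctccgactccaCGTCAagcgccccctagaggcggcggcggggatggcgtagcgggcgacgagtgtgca
Prph: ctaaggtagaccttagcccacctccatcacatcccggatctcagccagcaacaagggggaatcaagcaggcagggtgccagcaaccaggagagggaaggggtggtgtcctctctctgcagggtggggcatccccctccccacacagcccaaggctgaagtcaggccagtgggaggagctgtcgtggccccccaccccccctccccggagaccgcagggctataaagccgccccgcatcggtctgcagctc
TGACG stood once in the *Vip* window, once in this *Elavl4* window and not in that of *Prph*. Of the other members it was found once for *Nos1* and *Chat*, 2 times for *Tac1* and not for *Uchl1*. Over all 32851 promoter windows of this length, 17.8% held it. TATAAA, searched on both strands, had 3 matches for *Vip* and 1 for *Prph*, none for the other members, and stood in 12.4% of all windows. These matches describe the letters of the windows and were not tied to expression.

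In levels per length, the peptide gene *Vip* stood highest and *Chat* lowest of the 9. The level given is the CPM divided by the kilobases of exon, and its median over 160 libraries was 7.97 for *Vip*, 5.06 for *Uchl1*, 3.94 for *Prph*, 3.42 for *Tac1*, 2.78 for *Nos1*, 2.28 for *Ret*, 0.955 for *Elavl4*, 0.686 for *Calcb* and 0.161 for *Chat*. Of the 8 pairs of neighbours in that order, only *Ret* and *Elavl4*, and *Calcb* and *Chat*, were apart by more than the range holding the middle 80% of libraries of each gene. *Ret* exceeded *Elavl4* in 160 of 160 libraries, whereas *Prph* exceeded *Tac1* in 88. *Vip* exceeded *Uchl1* in 148 libraries and *Uchl1* exceeded *Prph* in 146, so these orders held in most libraries although the ranges over libraries overlapped. Depth limited the low end: the median count was 12 for *Chat* and 13 for *Calcb*, with under 3 counts in 3 and 5 libraries, while *Nos1* had a median count of 483.5 and *Vip* of 422.5.

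Within each gene the spread over libraries differed widely. From here on, values are CPM scaled by TMM, which sets the libraries to a common scale, and are compared only within a gene. *Vip* ran from 1.76 through a median of 27.1 to 139 CPM, and *Nos1* from 2.12 through 31.0 to 122. *Tac1* ran from 5.05 through 11.6 to 78.7, *Ret* from 2.71 through 15.4 to 39.6, and *Chat* from 0.0642 through 0.758 to 2.04. Of the 3 general markers, *Elavl4* lay between 0.732 and 13.05, *Uchl1* between 1.17 and 16.9 and *Prph* between 1.68 and 15.2. As a ratio of the 90th to the 10th percentile, *Uchl1* spanned 1.96-fold, *Prph* 2.08-fold, *Ret* 2.25-fold, *Elavl4* 2.32-fold, *Vip* 2.55-fold, *Nos1* 2.79-fold, *Chat* 3.44-fold and *Tac1* 3.53-fold. *Calcb* stood apart with 31.4-fold. In a bulk library, fewer neurons and less RNA per neuron cannot be told apart.

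**Figure D1:**
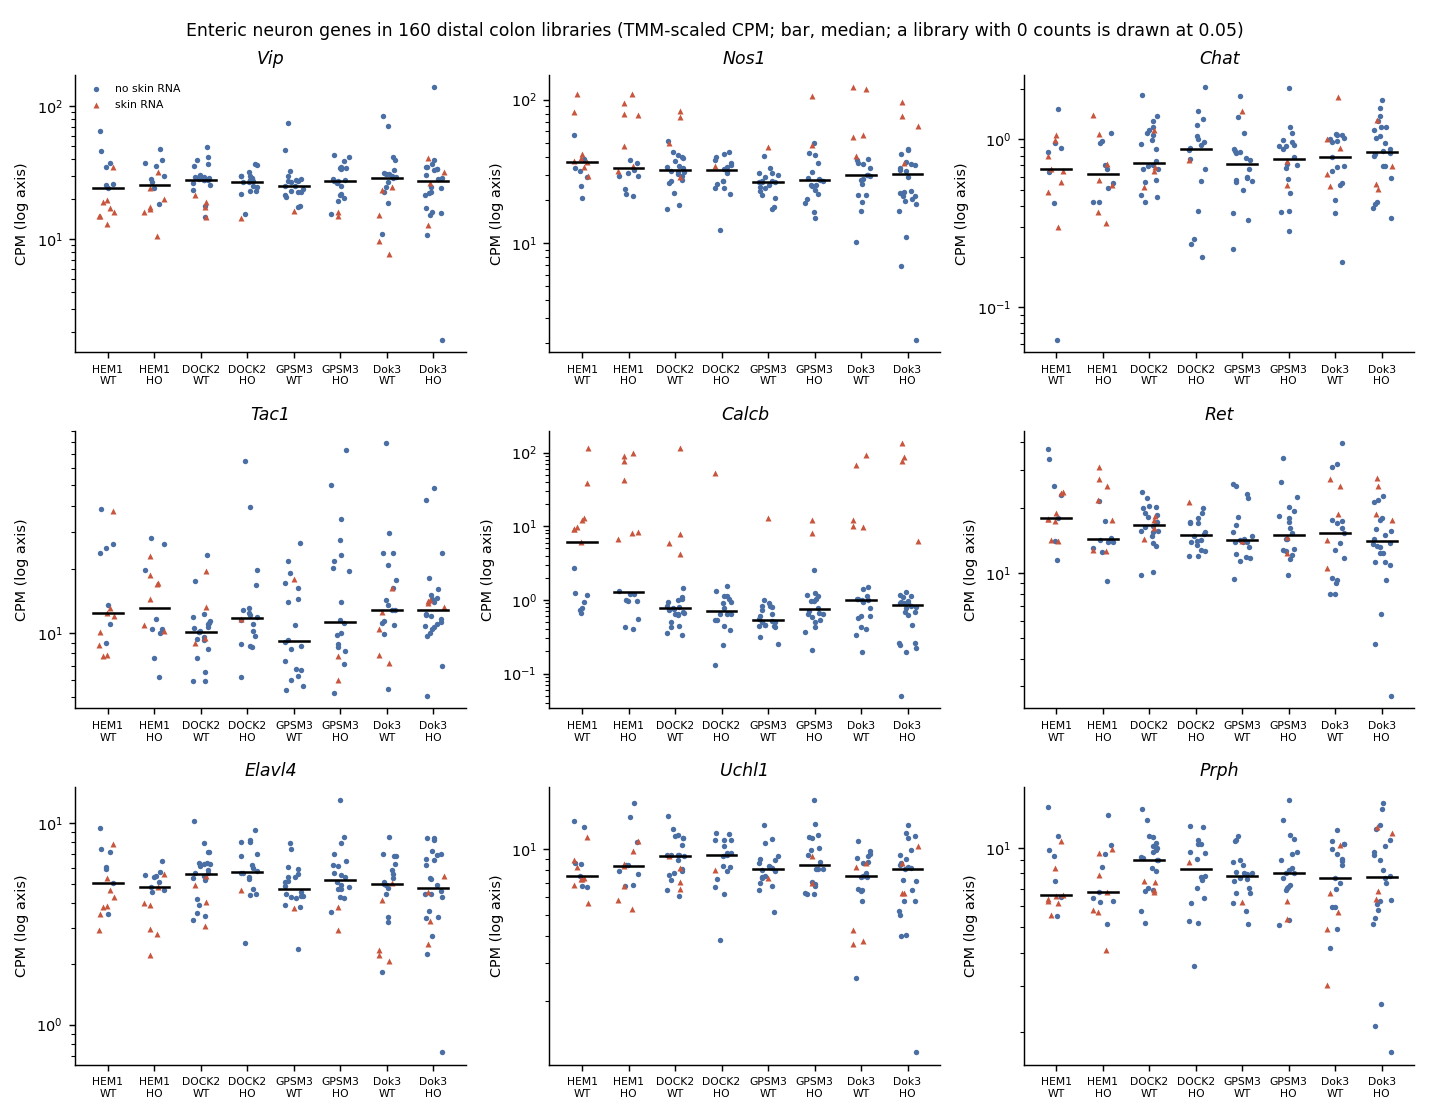
CPM of each gene (log axis) in the 160 libraries, 1 point per library, by line and genotype, with the median as a bar and libraries with skin RNA as triangles. The 8 group medians of *Vip* lie between 24.1 and 28.8 CPM, while the *Calcb* points of the 32 libraries with skin RNA all lie above those of the other 128.

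The extremes were shared by several members. Replicate 11 of the Dok3 HO group was the lowest of the 160 libraries for *Vip* (1.76 CPM, next lowest 7.77), *Nos1* (2.12, next 6.92), *Ret* (2.71, next 4.69), *Elavl4* (0.732, next 1.82), *Uchl1* (1.17, next 2.56) and *Prph* (1.68, next 2.11). It was also the library with the least smooth muscle RNA, but not the lowest for *Chat*, *Tac1* or *Calcb*. At the other end, replicate 6 of the GPSM3 HO group was the highest for *Elavl4* (13.05 CPM), *Uchl1* (16.9) and *Prph* (15.2). The highest *Vip* value, 139 CPM in replicate 17 of the Dok3 HO group, came from the library with the highest inflammation score of all, 8.51. The next, 84.7 in replicate 18 of the Dok3 WT group, had an inflammation score of 7.52. *Tac1* reached 78.7, 72.9 and 64.7 CPM in single libraries of the Dok3 WT, GPSM3 HO and DOCK2 HO groups, libraries that did not hold skin RNA.

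The first comparison asked whether loss of any of the 4 genes went with a change in the neuronal transcripts, and none of the 9 passed the test in any line. Group medians were close: the 8 line and genotype medians of *Vip* lay between 24.1 and 28.8 CPM, those of *Elavl4* between 4.69 and 5.69, those of *Uchl1* between 7.50 and 9.35 and those of *Prph* between 6.64 and 8.96. *Nos1* medians lay between 26.7 and 36.8, *Ret* medians between 14.1 and 17.9, and *Chat* medians between 0.620 and 0.875. HO and WT overlapped for every member in every line. By edgeR's quasi-likelihood test at an adjusted p below 0.05, none of the members (0 of 9) were called in HEM1, where 0% of all genes were (0 of 17947). In DOCK2, 0 of 9 were called, against 0.034% of all genes (6 of 17648), in GPSM3 0 of 9 against 0.00569% (1 of 17560), and in Dok3 0 of 9 against 0% (0 of 17612). At an unadjusted p under 0.05 the members numbered 0 in HEM1, 1 in DOCK2, 1 in GPSM3 and 0 in Dok3, and neither DESeq2 nor limma-voom called any. With so few genes called anywhere, the absence of calls is no property of the neuronal genes.

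Averaged over the lines, the HO minus WT difference was bounded within small limits for most members. It was -0.038 (95% interval -0.24 to 0.17) log2 for *Vip*, -0.048 (95% interval -0.27 to 0.17) for *Nos1*, -0.11 (95% interval -0.27 to 0.043) for *Ret* and 0.068 (95% interval -0.14 to 0.27) for *Chat*. The general markers gave 0.062 (95% interval -0.095 to 0.22) for *Elavl4*, 0.079 (95% interval -0.057 to 0.22) for *Uchl1* and 0.021 (95% interval -0.13 to 0.17) for *Prph*. *Tac1* and *Calcb*, the members with the widest spread, gave 0.20 (95% interval -0.054 to 0.46) and 0.36 (95% interval -0.39 to 1.10). Here 0 of 9 were called against 0.277% of all genes, no member had an unadjusted p under 0.05, and the members' median of 0.062 stood beside -0.00036 for all genes tested. Over the 128 libraries without skin RNA 0 of 9 were called against 0.816%, and *Ret* gave -0.24 (SE 0.093, adjusted p = 0.352). There its WT and HO medians were 22.9 and 13.9 CPM in HEM1 and 16.7 and 14.7 in DOCK2. They were 14.2 and 15.7 in GPSM3 and 14.5 and 13.4 in Dok3. Among those HEM1 libraries, WT replicates 8 to 11 had inflammation scores (defined below) of 4.20 to 7.22 and HO replicate 9 had 5.54. All others lay at 2.61 or lower. The part of inflammation in the *Ret* difference was not tested.

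*Tac1*, the tachykinin precursor, had the smallest p of the 9 in the test of whether the HO minus WT difference varied between lines, and did not pass it. In the DOCK2 line its lowest, median and highest values were 5.89, 10.1 and 23.5 CPM in WT and 6.21, 11.8 and 64.7 in HO. In the GPSM3 line they were 5.39, 9.17 and 26.7 in WT and 5.22, 11.3 and 72.9 in HO. In these lines the HO median was the higher one but the groups overlapped over most of their range, and the log2 difference was 0.53 in DOCK2 (SE 0.22, unadjusted p = 0.0175, adjusted p = 0.794) and 0.67 in GPSM3 (SE 0.29, unadjusted p = 0.0268, adjusted p = 0.936). In HEM1 *Tac1* values were 7.80, 12.4 and 38.4 CPM in WT and 6.21, 13.1 and 28.2 in HO, and in Dok3 5.41, 12.9 and 78.7 and 5.05, 12.8 and 48.3. The difference there was -0.16 (SE 0.28) and -0.20 (SE 0.23). A test that the 4 differences are equal called 0 of 9 members, against 0.69% of all genes (137 of 19849), and *Tac1* had an adjusted p of 0.634 (unadjusted 0.0214). Neither DESeq2 nor limma-voom called a member in that test.

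*Calcb* had the largest single differences, and they moved with the libraries with skin RNA. In the HEM1 line its lowest, median and highest values were 0.668, 6.16 and 116 CPM in WT, where 8 of 15 libraries held skin RNA, and 0.400, 1.27 and 99.9 in HO, where 7 of 16 did. The fitted difference was 1.47 log2 (SE 0.88, adjusted p = 0.9996), opposite in sign to the difference of the medians, and -0.48 without the libraries with skin RNA. In DOCK2, with skin RNA in 4 of 24 WT and 1 of 18 HO libraries, the difference was -1.01 with all libraries and 0.13 without those. No direction by genotype can be read from this gene.

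**Figure D2:**
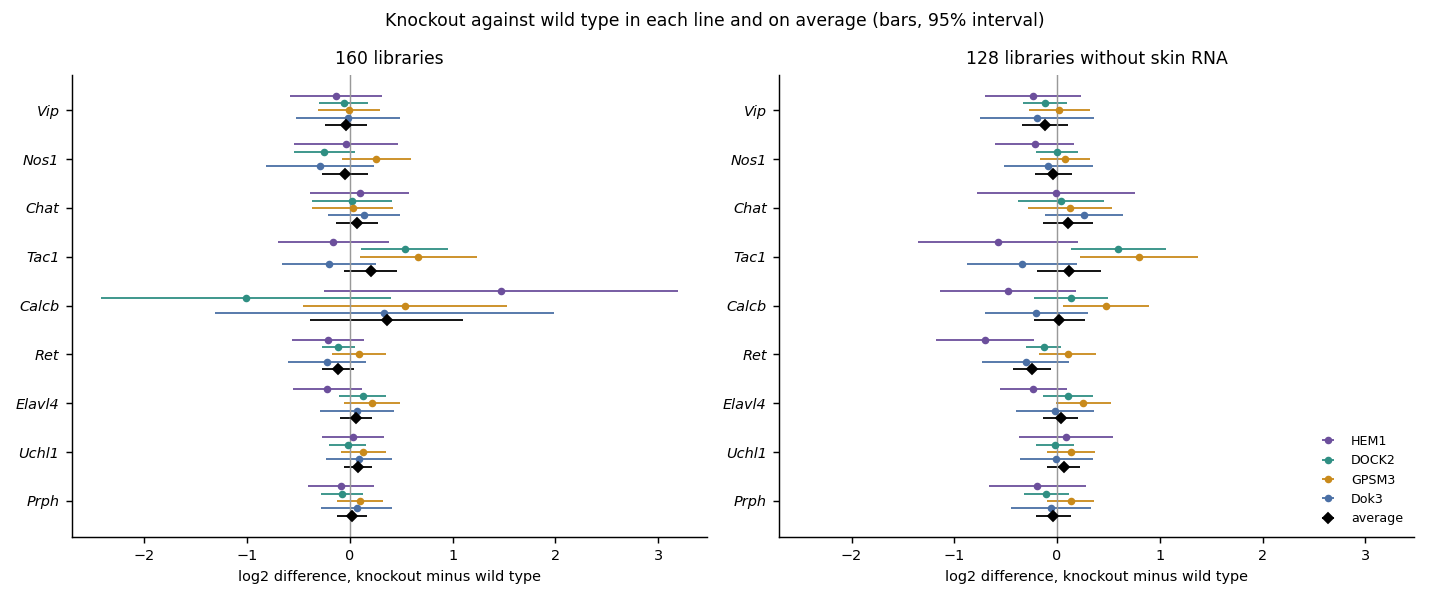
HO minus WT log2 difference of each gene in the 4 lines and on average, with bars of the 95% interval, over all 160 libraries and over the 128 without skin RNA. Over the 160 libraries every average interval holds 0. Over the 128 that of *Ret* lies below it, with inflammation not held fixed. The wide *Calcb* bars of the first panel narrow without the libraries with skin RNA.

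The second question was how the members move together. Rank correlations over the 160 libraries, after removing the means of line, genotype, run of sample numbers and sex, set the general markers and *Vip* in a tight group. The points share libraries and depth, so the values are descriptions. Spearman's rho was 0.83 for *Uchl1* with *Prph*, 0.75 for *Elavl4* with *Uchl1* and 0.74 for *Elavl4* with *Prph*. *Vip* had rho of 0.69 with *Elavl4*, 0.66 with *Prph* and 0.65 with *Uchl1*. *Nos1*, made by the same inhibitory neurons, looked looser, at 0.52 with *Uchl1*, 0.48 with *Prph*, 0.31 with *Elavl4* and 0.22 with *Vip*. Over the 128 libraries without skin RNA the same 4 values were 0.84, 0.82, 0.78 and 0.60, so that *Nos1* then ranked with the markers. *Calcb* changed likewise: its rho rose from -0.10 to 0.51 with *Elavl4*, from 0.075 to 0.54 with *Prph* and from -0.057 to 0.51 with *Vip*. *Tac1* was closest to *Ret*, at 0.56 over all libraries and 0.57 without skin RNA.

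The genes most like the members, searched among 14374 or more named genes with a mean log2 CPM of at least 1, were largely neuronal for the general markers. The mean of the 9 members was most like *Sphkap* (rho 0.79), *Tubb3*, a neuronal tubulin (0.77), *Dpp6*, a potassium channel subunit (0.76), *Penk*, the enkephalin precursor (0.76), and *Ahi1* (0.75). *Prph* was most like *Htr3a*, a serotonin receptor subunit (0.85), and *Pirt* (0.83), which was also among the nearest 2 of *Uchl1* (0.84, after *Slc7a14* at 0.84), *Elavl4* (0.78, after *Rab3c* at 0.81) and *Vip* (0.69, after *Tm4sf4* at 0.71). *Nos1* was nearest to *Eef1a2* (0.84) and *Ank2* (0.84), and *Chat* to *Rtn1* (0.61) and *Slc25a23* (0.56). *Calcb* was nearest to the epidermal genes *Dmkn* (0.79) and *Alox12* (0.75). *Tac1* was nearest to *Prps1* (0.76) and *Apaf1* (0.76), and *Ret* to *Tgm2*, a transglutaminase (0.76), and *Nsg1* (0.75), so the nearest genes of *Tac1* were not neuronal ones.

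**Figure D3:**
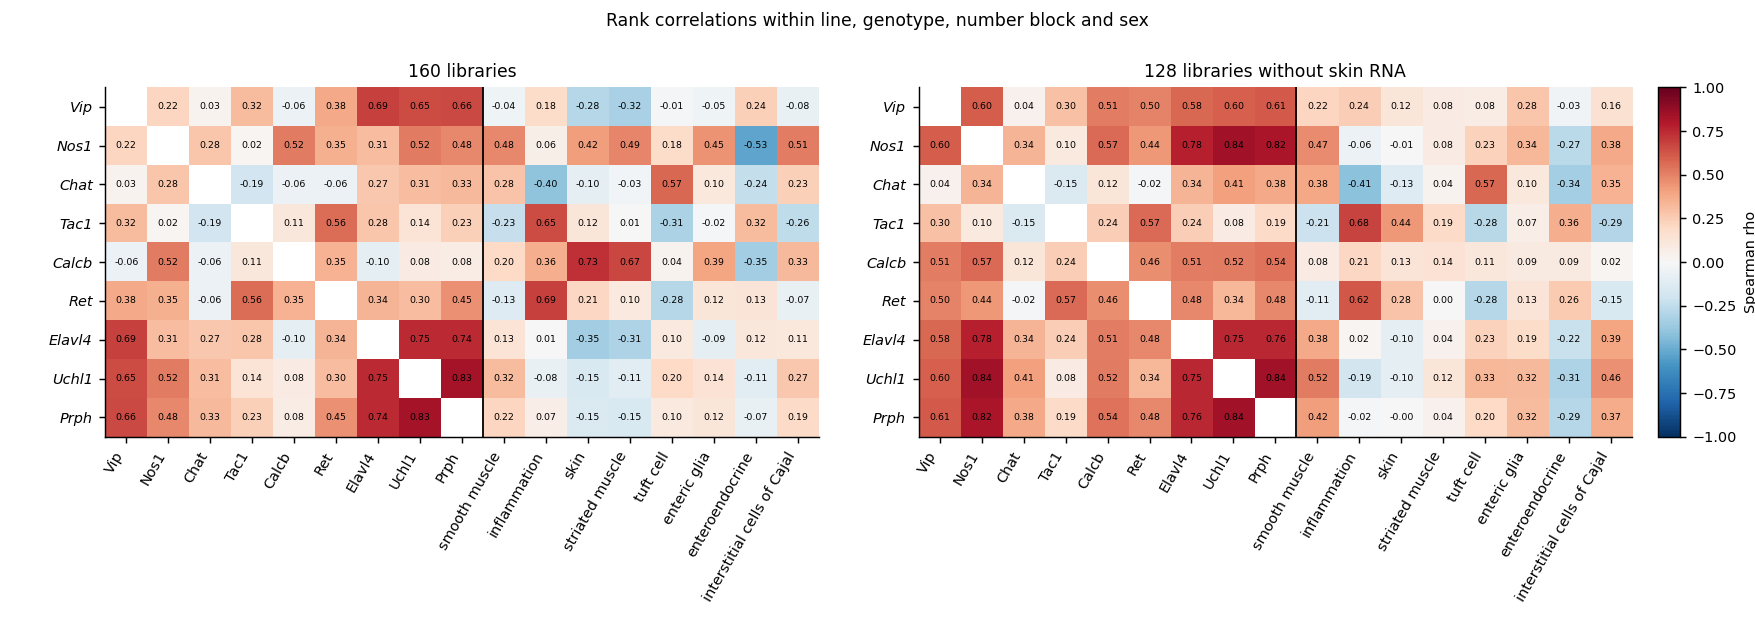
Spearman's rho of each member with the other members and with list scores, over 160 libraries and over the 128 without skin RNA, as colour. *Elavl4*, *Uchl1* and *Prph* form a block in both panels, and *Nos1* joins it in the second.

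Against smooth muscle, the tissue the motor neurons supply, most members rose. The smooth muscle score was the mean log2 CPM of 14 contractile genes such as *Myh11*, *Acta2* and *Des*, and the slope is the log2 change of a gene per log2 unit of the score, within line, genotype, run of sample numbers and sex. Of the 9 members 6 rose and 1 fell with the score at an adjusted p under 0.05, where 55.7% of all genes passed, 27.6% rising and 28.1% falling. The members' median slope was 0.32 beside -0.0034 for all genes. Of the inhibitory pair, *Nos1* had a slope of 0.87 (SE 0.10, adjusted p = 1.16e-12) while *Vip* had 0.039 (SE 0.12, adjusted p = 0.803). Of the excitatory pair, *Chat* rose by 0.39 (SE 0.12, adjusted p = 0.00274) and *Tac1* fell, with a slope of -0.37 (SE 0.13, adjusted p = 0.0135). The sensory *Calcb* had the steepest slope, 1.90 (SE 0.43, adjusted p = 6.88e-05), and *Ret* had -0.13 (SE 0.087, adjusted p = 0.195). All 3 general markers rose: *Uchl1* by 0.41 (SE 0.072, adjusted p = 3.38e-07), *Prph* by 0.32 (SE 0.080, adjusted p = 0.000339) and *Elavl4* by 0.25 (SE 0.086, adjusted p = 0.0102).

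Part of this order moved with the libraries with skin RNA, whose median smooth muscle score was 8.66 against 8.14 in the others. Over the 128 without skin RNA, 6 of 9 rose and none fell, against 46.9% of all genes called. *Nos1* (0.69), *Uchl1* (0.64), *Chat* (0.59), *Prph* (0.56) and *Elavl4* (0.55) then had nearly the same slope, joined by *Vip* at 0.45 (SE 0.13, adjusted p = 0.00289). *Calcb* was no longer called, at 0.31 (SE 0.15, adjusted p = 0.0776), nor was *Tac1*, at -0.25 (SE 0.17, adjusted p = 0.229), and *Ret* stayed at -0.085. With the scores of smooth muscle, inflammation, skin, striated muscle and tuft cells in 1 fit, 6 of 9 rose. Of all genes 34.3% were called in either direction, 3417 of 19849 rising. The members that rose were *Nos1* 0.74, *Vip* 0.68, *Uchl1* 0.61, *Prph* 0.60, *Elavl4* 0.60 and *Ret* 0.27. In that fit *Chat* had 0.10 (SE 0.12, adjusted p = 0.565) and *Tac1* 0.17 (SE 0.13, adjusted p = 0.357). Fitted on their own, the lines gave different counts of members called, and so did all genes: 0 of 9 against 9.41% in HEM1, 2 of 9 against 30.2% in DOCK2, 4 of 9 against 52.9% in GPSM3 and 3 of 9 against 11.2% in Dok3. Without replicate 11 of the Dok3 HO group the *Vip* slope was -0.069.

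As correlations with the smooth muscle score over the same 160 libraries, *Nos1* had a Pearson r of 0.59 (Spearman's rho 0.48, permutation p = 1e-05 for r, the smallest that 100000 permutations can give, and adjusted p = 6e-05 over 18 relations). Without the 2 libraries farthest from the median score r was 0.50, and within the lines it was 0.24 in HEM1, 0.70 in DOCK2, 0.59 in GPSM3 and 0.69 in Dok3. The relation of *Nos1* thus held in sign in all 4 lines with the libraries with skin RNA included. Without those, its rho over all lines was 0.47. *Uchl1* had r of 0.45 and rho of 0.32 (permutation p = 2e-05 and 9e-05, adjusted 9e-05 and 0.00027), with r of 0.32 without the 2 farthest. Its rho was 0.52 without the libraries with skin RNA. For *Elavl4* r was 0.27 and rho 0.13 (permutation p = 0.00408 and 0.114, adjusted 0.00668 and 0.168), so its rank correlation did not pass. The r of *Elavl4* was 0.12 without the 2 farthest and -0.25 in HEM1, and its rho was 0.38 without the libraries with skin RNA. *Vip* had r of 0.12 and rho of -0.042 (permutation p = 0.185 and 0.612, adjusted 0.222 and 0.649), with r from -0.44 in HEM1 to 0.45 in Dok3. Without the libraries with skin RNA the rho of *Vip* was 0.22.

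Other pan-neuronal genes rose with the smooth muscle score as the general markers did. The list counts that follow stand beside 55.7% of all genes called on this score, 27.6% rising and 28.1% falling. Of a pan-neuronal list of 20 genes that holds *Elavl4*, *Uchl1* and *Prph*, 17 rose and 0 fell, with a median slope of 0.32, and the non-members of smallest p were *Stmn2*, a regulator of neuronal microtubules (0.62, adjusted p = 2.62e-17), and *Map1b* (0.51, adjusted p = 1.13e-16). Of 14 receptors of the members' transmitters 10 rose, led by the neurokinin receptor *Tacr2* (1.06) and the muscarinic receptor *Chrm2* (0.98), both of which smooth muscle itself uses. Of 15 genes of RET and neural crest signalling 8 rose and 2 fell, among them *Hand2* (0.54) and the RET co-receptor *Gfra1* (0.55). Of 8 glial genes 6 rose and 2 fell, and of 4 genes of sympathetic neurons 0 did.

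The inflammation score, the mean log2 CPM of 18 genes of neutrophils and acute cytokine response such as *S100a8*, *Il1b* and *Lcn2*, split the members differently. It ran from -0.80 to 8.51, without a gap that would part treated from untreated mice. The peptide genes and *Ret* rose with it: *Tac1* by 0.23 (SE 0.024, adjusted p = 1.69e-16), *Ret* by 0.17 (SE 0.013, adjusted p = 1.95e-24), *Vip* by 0.13 (SE 0.021, adjusted p = 2.83e-08) and *Calcb* by 0.76 (SE 0.10, adjusted p = 1.34e-12). *Chat* fell, with a slope of -0.092 (SE 0.025, adjusted p = 0.0005). The general markers and *Nos1* were not called, with slopes of 0.034 for *Prph* (adjusted p = 0.0643), 0.014 for *Elavl4* (adjusted p = 0.502), -0.00072 for *Uchl1* (adjusted p = 0.97) and 0.045 for *Nos1* (adjusted p = 0.133). So 4 of 9 rose and 1 fell, where 75% of all genes passed, 39.1% rising and 35.9% falling. The share of members called was thus no larger than that of all genes, and the median slope was 0.045 beside 0.0032.

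Without the libraries with skin RNA, 3 members rose and 1 fell, against 72.5% of all genes called. *Tac1* then had 0.26 (SE 0.029, adjusted p = 6.17e-14), *Ret* 0.16 (SE 0.016, adjusted p = 2.39e-16), *Vip* 0.14 (SE 0.022, adjusted p = 9.19e-09) and *Chat* -0.11 (SE 0.030, adjusted p = 0.000525), each close to its value over all libraries. *Calcb* fell out, from 0.76 to 0.065 (SE 0.031, adjusted p = 0.0565). With 5 scores in 1 fit, 8 of 9 members rose and only *Chat* did not (-0.020 (SE 0.026, adjusted p = 0.499)). Of all genes 70.3% were called in either direction, 6808 of 19849 rising. In that fit *Tac1* gave 0.26, *Ret* 0.19, *Vip* 0.23, *Nos1* 0.10, *Prph* 0.12, *Elavl4* 0.11 and *Uchl1* 0.082. Inflammation and smooth muscle were not independent here, since 10 of the 14 smooth muscle genes fell with the inflammation score, so the call of the general markers depends on whether smooth muscle is held fixed.

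*Ret* and *Tac1* were the members most tightly tied to inflammation. *Ret* had a Pearson r of 0.73 and a rho of 0.69 with the score (permutation p = 1e-05, the smallest possible, adjusted 6e-05), and 0.72 without the 2 farthest libraries. Within the lines r was 0.88 in HEM1, 0.43 in DOCK2, 0.84 in GPSM3 and 0.74 in Dok3. *Tac1* had r of 0.61 and rho of 0.65 (permutation p = 1e-05, adjusted 6e-05), 0.59 without the 2 farthest, and between 0.50 in DOCK2 and 0.74 in HEM1. Both relations were positive in every line. *Chat* ran the other way, with r of -0.32 and rho of -0.40 (permutation p = 0.00014 and 1e-05, adjusted 0.000315 and 4.5e-05), and -0.32 without the 2 farthest. *Vip* was looser, with r of 0.37 and rho of 0.18 (permutation p = 7e-05 and 0.0331, adjusted 0.00021 and 0.0542), so its rank correlation did not pass. Its r was 0.28 without the 2 farthest, and ran from 0.098 in DOCK2 to 0.48 in Dok3.

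**Figure D4:**
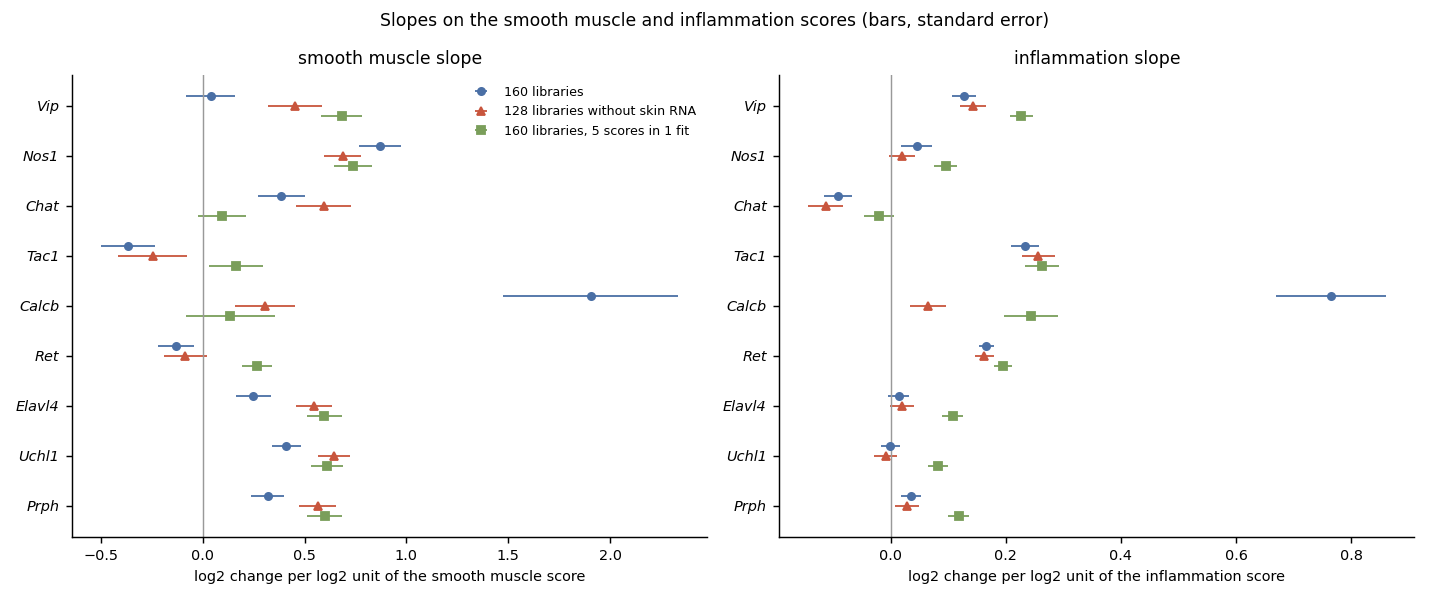
Slopes of the 9 genes on the smooth muscle score and on the inflammation score (log2 change per log2 unit), with standard errors, for all libraries, without the libraries with skin RNA, and with 5 scores in 1 fit. *Nos1* and the general markers lie right of 0 on smooth muscle, and *Tac1*, *Ret* and *Vip* right of 0 on inflammation, in all 3 fits.

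Several neuropeptide genes that are not members rose with inflammation. The list counts that follow stand beside 75% of all genes called on this score, 39.1% rising and 35.9% falling. Of 6 genes of excitatory neurons, *Tac1* among them, 5 rose and 1 fell, with the opioid precursors *Pdyn* (0.37, adjusted p = 1.28e-20) and *Penk* (0.19, adjusted p = 5.81e-15) rising. Of 7 tested genes of inhibitory neurons, *Vip* and *Nos1* among them, 5 rose and 0 fell, led by *Cartpt* (0.33) and galanin, *Gal* (0.28). Of 9 tested genes of sensory neurons, *Calcb* among them, 3 rose and 3 fell. Of the 15 genes around RET 7 rose and 2 fell, with the endothelin receptor *Ednrb* (0.22) and *Zeb2* (0.17), both also expressed outside neurons, of smallest p. Of the 20 pan-neuronal genes 3 rose and 6 fell, with a median of -0.0041, *Rtn1* (-0.14) and *Mapt* (-0.055) among those that fell. Of 14 receptors 3 rose, among them *Tacr1*, the receptor of substance P (0.28), and 5 fell, among them *Vipr1*, an epithelial receptor of VIP (-0.15). *Ano1* (-0.19) and *Kit* (-0.14), markers of the interstitial cells of Cajal, which pace the muscle, fell. Of 8 glial genes 2 rose, *Gfap* (0.20) with them, and 3 fell, *S100b* (-0.10) with them. Of 8 enteroendocrine genes 4 rose and 0 fell, beside a rho of *Tac1* with the enteroendocrine score of 0.32, and of 8 genes of colon epithelium 1 rose and 6 fell. The part of these other cells in the members' slopes was not tested.

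*Calcb*, *Nos1* and *Chat* were also read against the cells outside the gut's neurons that could carry them. *Calcb* was at 4.14 to 133 CPM (median 12.1) in the 32 libraries with skin RNA and at 0 to 2.70 (median 0.723) in the other 128, without overlap. It exceeded 5 CPM in 31 libraries, all of them with skin RNA, and its 3 highest values, 133, 116 and 114, were among these. On the skin score *Calcb* had a slope of 0.61 (SE 0.021, adjusted p = 2.41e-61), alongside *Nos1* (0.13) and *Ret* (0.030), which rose, and *Vip* (-0.067) and *Elavl4* (-0.057), which fell. These were 3 rising and 2 falling of 9, against 66.7% of all genes, 32.6% rising and 34.1% falling. The rank correlation of *Calcb* with the skin score was 0.73 over all libraries and 0.13 within the 128.

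*Nos1* had a median of 52.5 CPM with skin RNA and 28.5 without, and its 3 highest values, 122, 119 and 109, were all from libraries with skin RNA. On the striated muscle score *Nos1* (0.20 (SE 0.016, adjusted p = 4.25e-23)) and *Calcb* (0.76 (SE 0.046, adjusted p = 1.41e-33)) rose and *Vip* (-0.092) and *Elavl4* (-0.069) fell, 4 of 9 against 63.2% of all genes, 30.3% rising and 33% falling. Without the libraries with skin RNA 0 of 9 were called on this score, against 0.53% of all genes, with *Nos1* at 0.093 (SE 0.079, adjusted p = 0.591) and *Calcb* at 0.18 (SE 0.10, adjusted p = 0.423), and the rho of *Nos1* with it was 0.084 against 0.49 over all libraries. With 5 scores in 1 fit over all libraries *Nos1* and *Calcb* parted: *Nos1* rose with striated muscle (0.28 (SE 0.035, adjusted p = 1.46e-11)) and fell with skin (-0.13 (SE 0.028, adjusted p = 0.000192)), whereas *Calcb* rose with skin (0.61 (SE 0.051, adjusted p = 2.83e-21)) and not with striated muscle (-0.092 (SE 0.066, adjusted p = 0.476)). Other members were lower where skin RNA was present, with medians of 16.9 against 28.0 CPM for *Vip*, 3.88 against 5.41 for *Elavl4*, 7.40 against 8.40 for *Uchl1* and 6.70 against 8.19 for *Prph*.

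*Chat* followed the tuft cell score, the mean log2 CPM of genes such as *Dclk1* and *Trpm5*. Its slope was 1.12 (SE 0.14, adjusted p = 3.82e-11), and *Uchl1* rose with it too (0.27), while *Tac1* (-0.60) and *Ret* (-0.38) fell, 2 rising and 2 falling of 9 against 46% of all genes, 22.7% rising and 23.3% falling. All 18 inflammation genes fell with the tuft cell score, and with 5 scores in 1 fit only *Chat* was called on it, at 1.02 (SE 0.15, adjusted p = 1.9e-07), against 14.3% of all genes. In that same fit the slope of *Chat* on smooth muscle was 0.10 and on inflammation -0.020, neither past the threshold. The rank correlation of *Chat* with the tuft cell score was 0.57 over all libraries and 0.57 without skin RNA, beside a rho of 0.31 with *Uchl1*, 0.033 with *Vip* and 0.61 with its nearest gene, the pan-neuronal *Rtn1*.

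**Figure D5:**
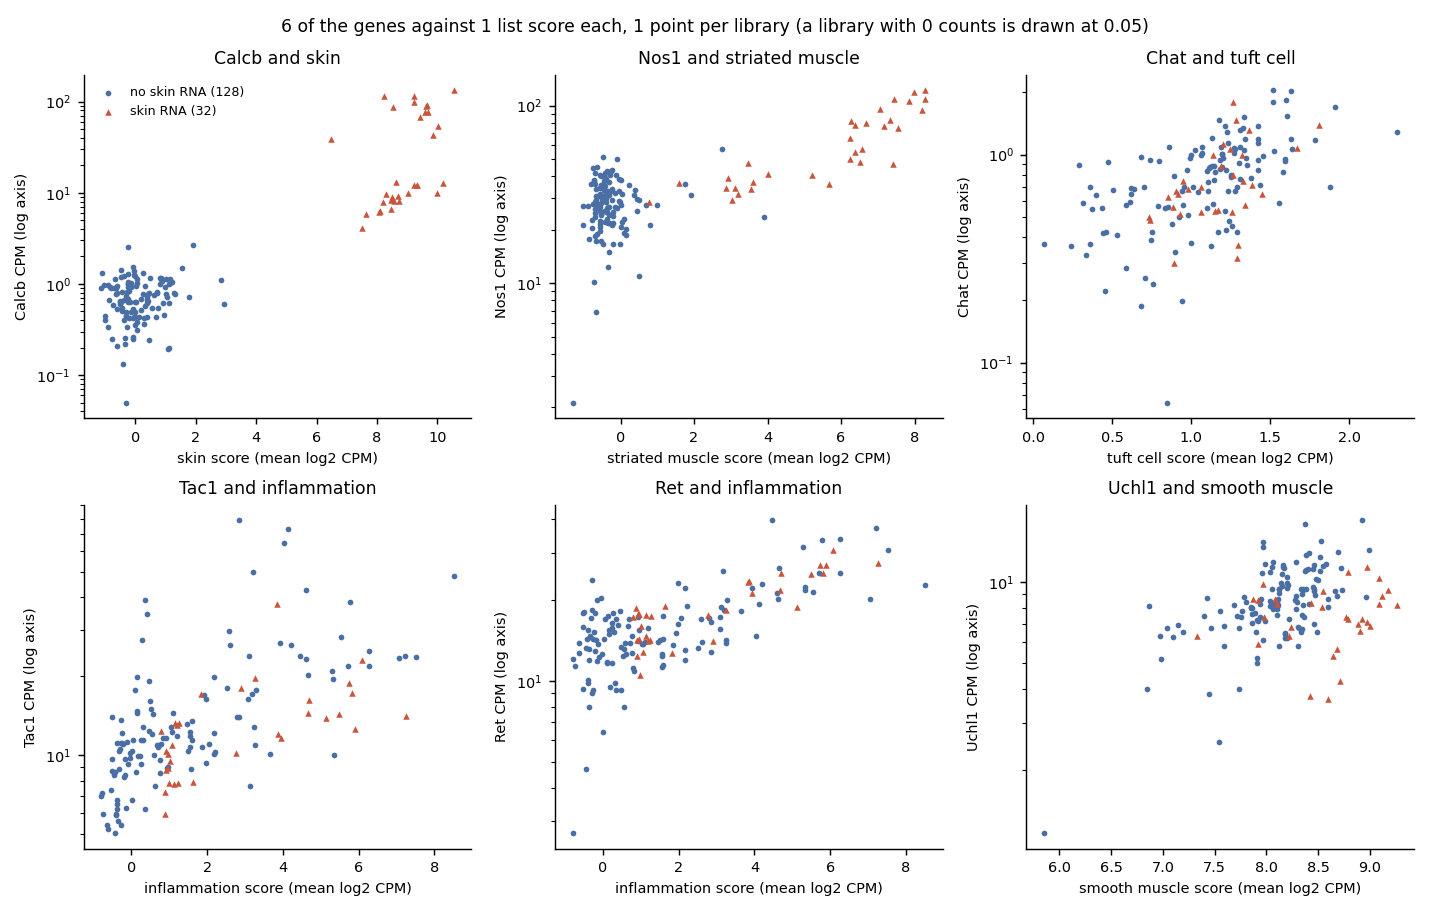
CPM (log axis) of 6 genes against 1 list score each, 1 point per library, triangles for the 32 libraries with skin RNA. *Calcb* is high only where the skin score is, *Chat* climbs with the tuft cell score, *Tac1* and *Ret* climb with the inflammation score, and *Nos1* and *Uchl1* are shown against striated and smooth muscle.

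Both sexes were present in 2 lines. In DOCK2, females mostly carried later sample numbers than males, so that sex and order of sampling cannot be told apart. There 4 of 9 members were higher in females. Of all genes 9.75% were called in either direction, 751 of 17648 being higher in females. *Prph* had lowest, median and highest values of 6.85, 10.1 and 14.03 CPM in 20 females and 3.57, 7.26 and 10.3 in 22 males, a difference of 0.41 (SE 0.10, adjusted p = 0.0101). *Uchl1* had 6.09, 10.7 and 14.2 in females and 3.83, 8.13 and 11.05 in males, a difference of 0.35 (SE 0.091, adjusted p = 0.0112). The sexes overlapped for both genes, with the female median above the male one. *Elavl4* differed by 0.37 (SE 0.12, adjusted p = 0.037) and *Calcb* by 2.90 (SE 0.72, adjusted p = 0.00869). Without the libraries with skin RNA (2 of 20 females and 3 of 22 males) 5 of 9 were higher in females. Of all genes 18.3% were then called in either direction, 1476 of 17525 being higher in females. *Nos1* joined with 0.47 (SE 0.10, adjusted p = 0.00213), and *Calcb* came down to 0.65 (SE 0.18, adjusted p = 0.0124). Of the 20 pan-neuronal genes 13 were higher in females over all libraries and 12 without skin RNA, with medians of 0.35 and 0.36 log2 beside -0.0015 and 0.00084 for all genes. The same females had lower inflammation genes, 14 of 15 called without skin RNA with a median of -2.53. With the smooth muscle score as a covariate 2 of 9 were called, *Prph* and *Uchl1*, against 9.16% of all genes. The part of inflammation in the members' difference was not tested.

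In the HEM1 line 0 of 9 members differed between 12 females and 19 males, against 0.178% of all genes called, with 2 members at an unadjusted p under 0.05 and none called by DESeq2 or limma-voom. *Calcb* differed by 2.45 (SE 0.87, adjusted p = 0.19) over all libraries, of which 9 of 12 female and 6 of 19 male ones held skin RNA, and by -0.47 without those. Whether the DOCK2 and HEM1 sex differences differ from each other was not tested.

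The wild-type mice of the 4 lines were compared last, as separate experiments that share no litter or date in the labels. Between Dok3 (129, 3.5% DSS after a first round at 3%) and GPSM3 (C57BL6/J, 3% DSS), both male at day 10, 2 of 9 members were called, against 30.4% of all genes. *Calcb* was 2.99 (SE 0.76, adjusted p = 0.0022) log2 higher in Dok3 and *Nos1* 0.53 (SE 0.20, adjusted p = 0.0357) higher, but 5 of 21 Dok3 and 1 of 20 GPSM3 wild-type libraries held skin RNA. Without these, *Calcb* differed by 0.44 (SE 0.20, adjusted p = 0.129) and *Nos1* by 0.054 (SE 0.13, adjusted p = 0.825), and 1 of 9 was called, against 18.4% of all genes. That member was *Tac1*, higher in Dok3 by 0.75 (SE 0.24, adjusted p = 0.0219), and over all libraries by 0.57 (SE 0.23, adjusted p = 0.0561). Strain, dose and experiment cannot be told apart in this difference, and 9 of 18 inflammation genes were higher in Dok3 too. Other neuropeptides that were higher in Dok3 included *Npy* (1.03, adjusted p = 0.00103) and *Cartpt* (1.14, adjusted p = 0.00439), whereas the choline transporter *Slc5a7* was lower (-0.66, adjusted p = 0.000561). Between DOCK2 and GPSM3, which share strain, dose and day, 0 of 9 members were called (1 at an unadjusted p under 0.05, and none by DESeq2 or limma-voom), against 0.121% of all genes. Between HEM1 and DOCK2, at day 12 and day 10 and with a lower DSS dose in HEM1, 0 of 9 were called, against 15.4% of all genes. *Tac1* had the smallest p there, at 0.65 (SE 0.24, adjusted p = 0.0529) higher in HEM1, and DESeq2 and limma-voom each called 1 member. Skin RNA was present in 8 of 15 HEM1 and 4 of 24 DOCK2 wild-type libraries. Without these libraries the genes called fell from 2944 to 536. The HEM1 and DOCK2 medians of *Tac1* were 12.4 and 10.1 CPM over all wild-type libraries. They were 23.8 and 10.1 in the 7 and 20 libraries without skin RNA. Inflammation scores of these 7 HEM1 libraries were 7.22, 6.27, 5.78, 4.20, 1.59, 0.94 and -0.22. All 24 DOCK2 wild-type libraries had a median score of 0.99, within a range from -0.45 to 7.06. The part of inflammation in this *Tac1* difference was not tested.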

How the data were processed

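Gene counts of 160 distal colon libraries (KAPA stranded, ribosomal RNA removed, 100-base single reads) were used as deposited: whole-number counts per Ensembl gene that the authors made by aligning to mm10 with STAR and counting with featureCounts of Subread. Versions and the strand setting are not given in the sources used here. Of 39179 identifiers, 37693 (96.2%, holding 99.67% of counts) matched a symbol. Totals per library had a median of 15989625.5, and 8 libraries were under 10000000 counts. Floors cover counting error only, and the 95% intervals of differences carry the spread between libraries.

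Samples were grouped by the genotype and line in the labels, which do not give each mouse's litter or cage, so p-values measure the spread between these libraries. Tests were edgeR 4.0.16 quasi-likelihood fits in R 4.3.3 (TMM, filterByExpr, Benjamini-Hochberg over all genes, threshold 0.05), with sex as a covariate where both sexes were present. Score slopes also held line, genotype and run of sample numbers, since the numbers in the sample titles fall into separate runs. Scores are mean log2 CPM (prior count 2) of a list. DESeq2 1.42.0, limma-voom (limma 3.58.1), other scalings, filters, covariates and subsets were alternatives. The skin, striated muscle and tuft cell slopes and the fits without libraries with skin RNA (a skin score above 5) were added after the data were seen. Correlations used 100000 permutations within line, genotype, run and sex (Python 3.11.15, scipy 1.17.1). The tests were tried on simulated counts first. The 9 genes and all lists were chosen with earlier results of these data known. Besides the members, the text names at most 2 genes of smallest p per neuronal list and comparison, the 5 genes most like the members' mean and the 2 most like each member, the deleted genes, and genes of other cell lists where a result turns on them. A further knockout line of the study was not analysed here.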

Additional observations from a re-analysis of the deposited data

How the results depend on the processing

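Of 122 alternatives for a count of members called, 104 kept it within 1.5 times. Of 441 alternative values of single members, 337 kept direction and side of the threshold, 18 passed it, 47 no longer did and 39 turned sign; the cause was not tested. Of 122 counts over all genes, 76 stayed within 1.5 times.

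Members called changed as follows. In DOCK2 the sex count fell to 2 with the smooth muscle score as a covariate. Fitted by line, the smooth muscle slope called 0 in HEM1, 2 in DOCK2, 4 in GPSM3 and 3 in Dok3, and the inflammation slope 3 in GPSM3. With the smooth muscle score also in the fit, or with 5 scores, the inflammation slope called 8. The striated muscle slope called 0 without skin RNA and 1 with 5 scores, and the tuft cell slope 1 with 5 scores. Wild-type Dok3 against GPSM3 called 1 without the filter, in males only or without skin RNA, and 0 by limma-voom. Wild-type HEM1 against DOCK2 called 1 by DESeq2, by limma-voom and with the smooth muscle score as a covariate.

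Signs turned mostly where values were small. The *Calcb* genotype difference became -0.26 in HEM1 with the inflammation score and -0.48 without skin RNA, and in DOCK2 0.57 with the smooth muscle score, 0.13 without skin RNA and 0.11 with the skin score. The HEM1 sex difference of *Calcb* became -0.47 without skin RNA. The average genotype difference became 0.058 for *Nos1* with the smooth muscle score, and for *Prph* -0.0086 by limma-voom and -0.035 without skin RNA. The smooth muscle slope of *Vip* was -0.0054 without the runs of sample numbers, -0.49 in HEM1, -0.31 in DOCK2, -0.072 in GPSM3 and -0.069 without replicate 11 of the Dok3 HO group. In HEM1 it was -0.055 for *Chat* and -0.22 for *Elavl4*. For *Ret* it was 0.029 in DOCK2, 0.21 in Dok3, 0.21 with the inflammation score and 0.27 with 5 scores, and for *Tac1* 0.032 in Dok3 and 0.17 with 5 scores. The inflammation slope of *Uchl1* was 0.00049 with DESeq2 size factors, 3.8e-06 by DESeq2, 0.0019 with z values, 0.015 in HEM1, 0.058 in Dok3, 0.033 with the smooth muscle score and 0.082 with 5 scores. In DOCK2 it was -0.082 for *Nos1*, -0.072 for *Elavl4* and -0.054 for *Prph*, and in GPSM3 -0.030 for *Nos1*. With 5 scores the skin slope was -0.13 for *Nos1* and -0.035 for *Ret*, the striated muscle slope -0.092 for *Calcb* and the tuft cell slope 0.0052 for *Tac1*. Without skin RNA the striated muscle slope was 0.029 for *Vip* and 0.064 for *Elavl4*.

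Counts over all genes moved most for genotype. HEM1 went from 0 to 27 without the filter, 10 by DESeq2, 196 with the smooth muscle and 3 with the inflammation score. DOCK2 went from 6 to 31 without the filter, 45 by DESeq2, 0 by limma-voom, 1 in males, 28 with the smooth muscle score, 79 without skin RNA and 21 with the skin score. GPSM3 went from 1 to 32, 2 and 2 (no filter, DESeq2, no skin RNA), and Dok3 from 0 to 15 without the filter. The average went from 55 to 1 by limma-voom, 107 with the smooth muscle score and 160 without skin RNA, and the test between lines from 137 to 1 and 390 (limma-voom, no skin RNA). The HEM1 sex count went from 32 to 55, 196, 12, 86 and 9 (no filter, DESeq2, runs of numbers, smooth muscle score, no skin RNA), and that of DOCK2 from 1721 to 3202 without skin RNA. The smooth muscle slope went from 11050 to 1688 in HEM1, 5331 in DOCK2, 1971 in Dok3 and 6803 with 5 scores, and the inflammation slope from 14894 to 8017, 9782 and 9498 in HEM1, DOCK2 and GPSM3. With 5 scores the skin slope went from 13238 to 3366, the striated muscle slope from 12550 to 1514 (104 without skin RNA) and the tuft cell slope from 9139 to 2848. Among wild types, Dok3 against GPSM3 went from 5791 to 3515 without skin RNA, DOCK2 against GPSM3 from 23 to 57, 14, 3, 37, 11 and 8 (no filter, DESeq2, limma-voom, males, smooth muscle score, no skin RNA), and HEM1 against DOCK2 from 2944 to 9 in males and 536 without skin RNA.

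No paired analysis was possible because the labels give no replicate numbers; the numbers used here follow accession order and pair nothing. Depth limits *Chat* and *Calcb* most, with median counts of 12 and 13.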

Other observations

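The sympathetic fibres that also run through the colon wall gave another reading. On the inflammation score, where 75% of all genes were called, 1 of 4 tested sympathetic genes rose and 1 fell. The noradrenaline transporter *Slc6a2* rose (0.39, adjusted p = 1.15e-12). The decarboxylase *Ddc*, which epithelial cells also express, fell (-0.21, adjusted p = 1.57e-21). Without the libraries with skin RNA the slopes were 0.36 and -0.17. *Slc6a2* was also higher in HEM1 than in DOCK2 wild types (1.46, adjusted p = 0.0356) and gave 0.54 (adjusted p = 0.608) without skin RNA. *Calca*, which encodes the alpha form of the peptide whose beta form *Calcb* encodes, was at 0 counts in 42 of 160 libraries, and its inflammation slope over all libraries was 0.57 (adjusted p = 4.4e-20). The median of *Calca* was only 0.12 CPM, and its slope without the libraries with skin RNA is not given here.

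Among the other receptors, *Tacr1*, the substance P receptor, was higher in wild-type HEM1 than DOCK2 colon by 1.09 log2 (adjusted p = 0.00609), and by 1.33 (adjusted p = 0.0112) without skin RNA. It was the only receptor of the list whose genotype difference varied between lines at an adjusted p under 0.05 without skin RNA (adjusted p = 0.0115), and over all libraries the same test gave 0.9996. Of all genes, that test called 390 of 19605 without skin RNA and 137 of 19849 over all libraries. *Tacr1* also rose with the inflammation score. Among HEM1 libraries without skin RNA, WT replicates 8 to 11 had inflammation scores of 4.20 to 7.22. HO replicate 9 had 5.54, and all others lay at 2.61 or lower. The part of inflammation in these *Tacr1* differences was not tested. In the DOCK2 line the gastrin-releasing peptide gene *Grp* was higher in females by 0.74 (adjusted p = 0.00497), beside *Ina*, a neuronal intermediate filament, at 0.63 (adjusted p = 0.000641).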
